A study of Mus musculus with 24 samples.

Results

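The genes described here are the MHC class II genes of the mouse and their partners: H2-Aa, H2-Ab1, H2-Eb1, H2-Ea-ps, H2-DMa, H2-DMb1, H2-DMb2, H2-Oa, Cd74 and Ciita. They were chosen by gene name, as every probe that the array files name for them, which gave 12 probes for 10 genes among 55681 probes with 34836 names. RNA was measured on single-colour Agilent arrays. The tissues were brown fat (BAT), skeletal muscle (titled quad) and the white fat of the gonads (gWAT) from male mice of the strains NZO/HiBomDife (NZO, New Zealand Obese) and C57BL/6 (B6). All 6 groups of strain and tissue received a high-fat diet with 45% fat, so no group on another diet was compared. The labels give an age of 6 weeks at sampling and no age at the start of the diet, and NZO mice are an inbred model in which obesity has many genetic causes. Each group held 4 arrays. The labels do not say whether the samples came from separate animals, so the p-values measure only the spread between these samples, which may be technical.

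Class II molecules are pairs of an alpha and a beta chain that present peptides from endosomes to CD4 T cells, and they are made mainly by dendritic cells, macrophages and B cells. Mice have the isotypes I-A (H2-Aa with H2-Ab1) and I-E (H2-Ea with H2-Eb1). The invariant chain Cd74 escorts new pairs and blocks their groove, H2-DM exchanges its last fragment for peptide, and H2-DO restrains H2-DM. The coactivator Ciita switches these genes on together by binding factors that sit on the S, X and Y boxes of their promoters. Class II genes lie in the H2 region, which is among the most variable parts of the mouse genome, and inbred strains carry different H2 haplotypes.

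A level below is the log2 processed signal of a probe minus the 75th percentile of its array, and a difference is NZO minus B6 on that log2 scale, with SE for the fitted standard error. A probe was called when limma gave an adjusted p (Benjamini-Hochberg, over all probes tested) under 0.05, and it entered the test if, in 1 or more of the groups compared, every array had it well above background. Array values are listed for replicates 009, 012, 003 and 007 of NZO white fat, 009, 011, 003 and 007 of the other NZO groups, and 010, 011, 015 and 009 of B6. The 75th percentile of the signal ranged from 134 to 360 units over arrays, and between 51.9% and 59.3% of probes were well above background. Because these are bulk tissues, fewer cells that express a gene and less RNA of it per cell cannot be told apart. No NZO sequence was checked, so the part of base differences under a probe in any strain difference below was not tested either.

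The library labelled B6 muscle 011 stood apart and was left out of all means, tests and counts unless stated. It held adipocyte markers at a summed signal of 967 times the 75th percentile, against 98.8 to 125 on the other B6 muscle arrays, and Lep, the gene of the fat hormone leptin, at a level of 3.64. It also gave a signal well above background for H2-Ea-ps (-1.06), which none of the other 11 B6 arrays did (-7.14 to -6.03). With it excluded, B6 muscle had the replicates 010, 015 and 009, and 23 of 24 arrays were used. On the arrays used, skeletal muscle fibre markers were highest in muscle (sums of 6160 to 8070) and brown adipocyte markers in BAT (2070 to 2770). B6 BAT also carried muscle fibre markers at a sum of 151 to 631, against 0.664 to 5.2 in NZO BAT. Brown adipocyte markers summed to 30 to 48.2 in NZO gWAT against 1.98 to 3.53 in B6 gWAT. In muscle they summed to 8.11 to 26 in NZO and 9.96 to 72.1 in B6, with 56.8 on B6 muscle 011. The part of these signals in the results on each tissue was not tested.

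The strains differed most clearly in the I-A chains and in the I-E alpha chain locus, which the array names H2-Ea-ps. H2-Ab1 was lower in NZO in all 3 tissues, 2.01- to 2.25-fold in gWAT, 3.20- to 4.13-fold in BAT and 4.89- to 5.10-fold in muscle, and H2-Aa was lower 2.21-fold in BAT and 3.71-fold in muscle. H2-Ea-ps was at least 46.7-fold higher in NZO in gWAT and at least 4.33-fold higher in BAT under the scaling used here. H2-DMb1, a chain of the peptide exchanger, was lower in NZO by 1.92-fold in BAT and 2.35-fold in muscle. H2-Eb1, Cd74, H2-DMa, H2-Oa and Ciita passed the strain test in no tissue in which they were tested.

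In gWAT, 3 of the 10 probes tested were called, 1 higher and 2 lower, where 32.4% of all probes were called (14.9% higher and 17.4% lower). In BAT 5 of 10 were called, 1 higher and 4 lower, where 15.7% of all probes were (7.39% higher and 8.34% lower). In muscle 4 of 8 were called, all lower, where 11% of all probes were (6.35% lower). The median strain difference over the tested class II probes was 0.21 in gWAT, -0.48 in BAT and -1.05 in muscle, beside -0.04, -0.01 and -0.04 over all probes tested. In gWAT 4573 of all probes were called higher in NZO and 5333 lower; with arrays centred on the median of all probes the split was 6174 to 2632 and the median of all probes 0.25. Under that centring 7 class II probes were called, 5 of them higher. The added calls were H2-Eb1 (0.75), H2-DMa (0.61), H2-Oa (1.05) and Cd74 (0.62), and every call made in gWAT without it kept its direction.

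**Figure D1:**
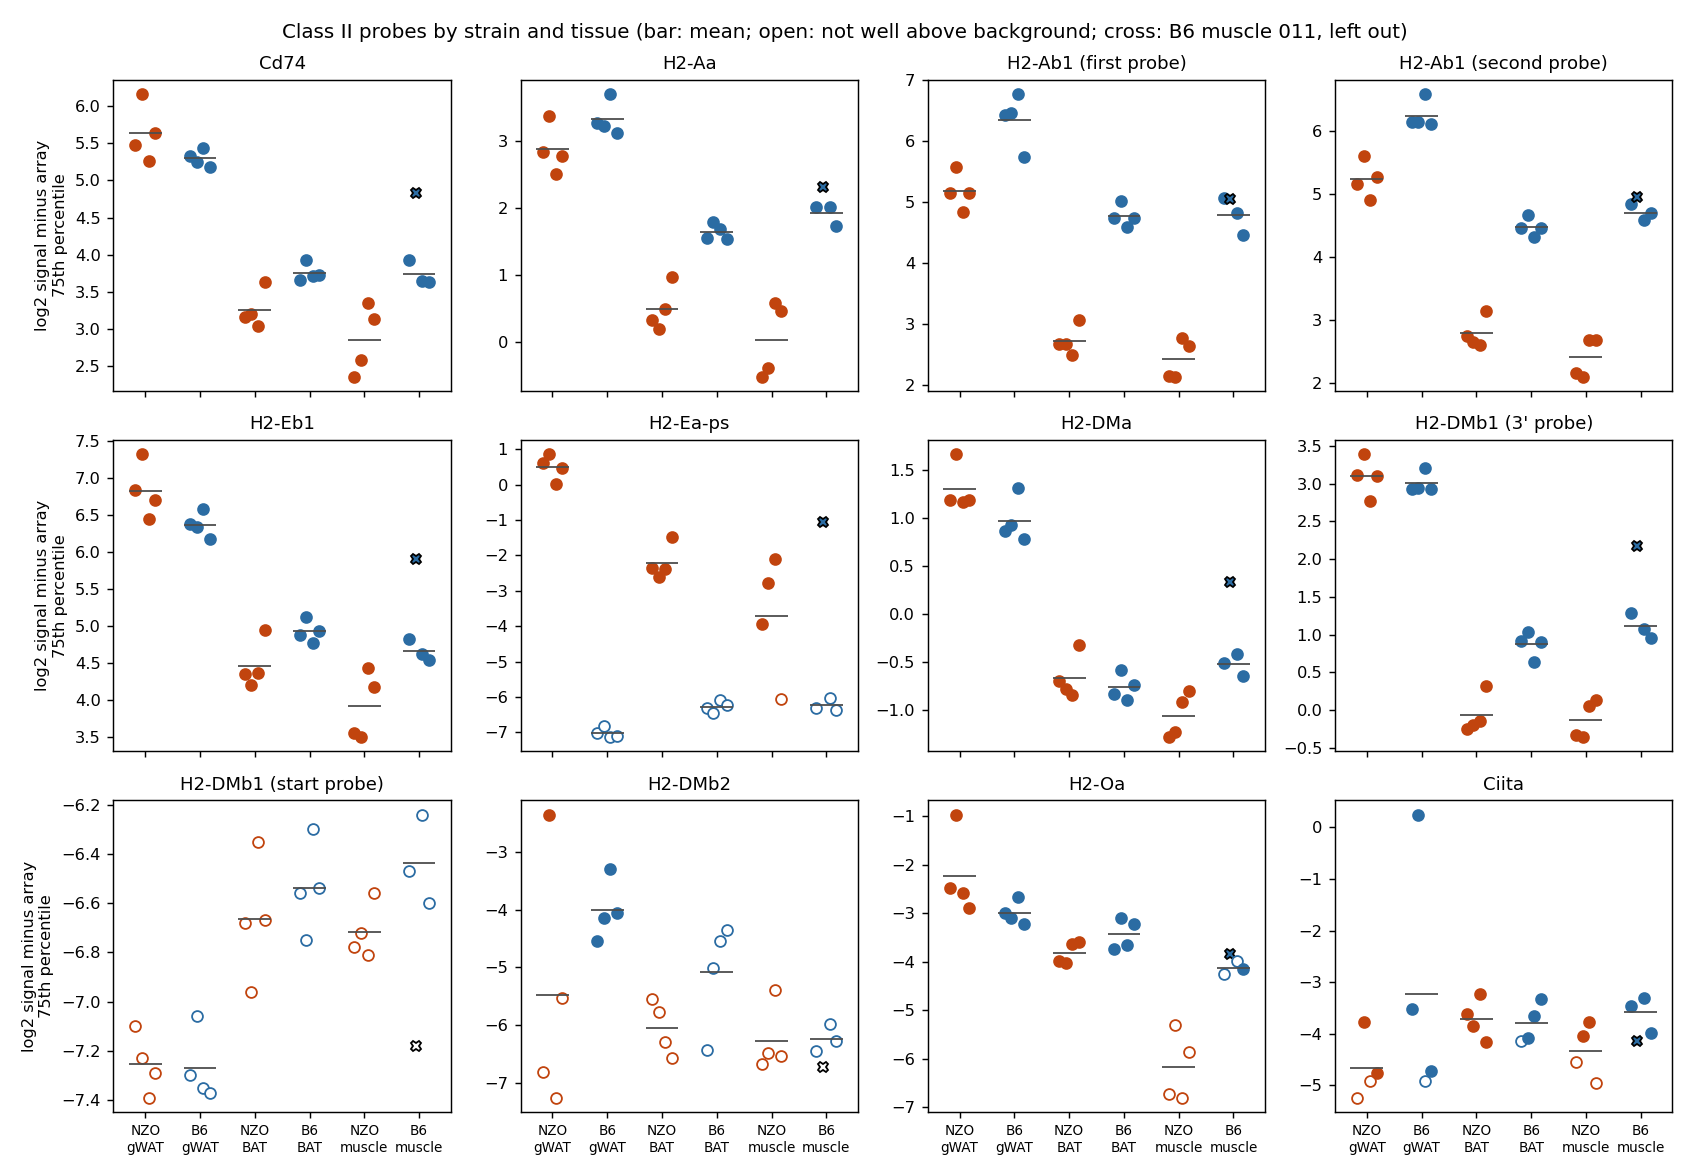
Level of each class II probe (log2 processed signal minus the array 75th percentile) on every array, by strain (NZO orange, B6 blue) and tissue; bars are group means, open circles are spots not well above background and the cross is B6 muscle 011. Cd74 and H2-Eb1 were highest in gWAT of both strains, and the H2-Ab1 probes were lower in NZO in each tissue. H2-Ea-ps was well above background only on B6 muscle 011 and on the NZO arrays other than NZO muscle 007.

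H2-Ab1 encodes the beta chain of I-A. Its probes are 60 bases long and overlap on the mouse build mm9, at chr17:34406296-34406355 for the first (A_55_P1962747) and chr17:34406305-34406363 for the second (A_55_P2146560), on the plus strand. They are not independent, since they share 51 bases, and within that overlap they differ by 1 base, T51C, counted from the 5′ end of the first probe. The 30 bases around it are shown, with that base in capitals, because the strains were compared with both versions:
H2-Ab1 first probe: agattacaaataaacgagacTcagactctg
H2-Ab1 second probe: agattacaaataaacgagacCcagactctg

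The first H2-Ab1 probe stood at 5.16, 5.58, 4.84 and 5.15 in NZO gWAT and at 6.44, 6.47, 6.78 and 5.74 in B6 gWAT. The second stood at 5.16, 5.59, 4.90 and 5.26 in NZO and at 6.13, 6.14, 6.58 and 6.10 in B6. No NZO array reached any B6 array on either probe. The differences were -1.17 (SE 0.24, adjusted p = 0.00794 by limma) and -1.01 (SE 0.18, adjusted p = 0.00354 by limma).

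In BAT the first H2-Ab1 probe stood at 2.68, 2.68, 2.50 and 3.08 in NZO and at 4.74, 5.02, 4.60 and 4.75 in B6. In muscle it stood at 2.15, 2.14, 2.78 and 2.65 in NZO and at 5.08, 4.82 and 4.46 in B6, with 5.06 on B6 muscle 011. The strains were again apart on every array used. The left-out array lay within the B6 muscle range here, but it carried fat markers and NZO gWAT stood at 4.84 to 5.58. Its level thus does not tell the strain. The differences were -2.04 in BAT (SE 0.15, adjusted p = 6.17e-05 by limma) and -2.35 in muscle (SE 0.22, adjusted p = 0.000886 by limma). The second probe gave -1.68 (SE 0.14) and -2.29 (SE 0.19). Between arrays that shared a slide, H2-Ab1 was lower in NZO in each of the 4 slide and tissue combinations that held both strains, with differences of -0.58 to -1.81 on the first probe and -0.84 to -2.01 on the second.

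The H2-Ab1 probes kept nearly the same difference from each other on every NZO array, while it varied more in B6 gWAT and muscle. The first minus the second was -0.11 to 0.00 in NZO gWAT, -0.10 to 0.01 in NZO BAT and -0.03 to 0.08 in NZO muscle. In B6 BAT it was 0.29 to 0.37, which did not overlap with NZO BAT (difference -0.37, exact permutation test, two-sided p = 0.0286, adjusted 0.0477 over the 15 within-array tests). In B6 gWAT and muscle it spread from -0.37 to 0.33 and from -0.24 to 0.24, overlapping with NZO (exact permutation p = 0.371 and 0.743). The lowest value in both tissues was that of B6 array 009. The other B6 arrays used there lay at 0.20 or above, higher than every NZO array of the same tissue. The smallest p these group sizes allow is 0.0286. The 15 tests share arrays and, in part, the H2-Eb1 probe, so they are not independent. The adjusted p of 0.0477 depends on which probe pairs were chosen for testing.

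H2-Aa encodes the alpha chain of I-A, and its probe lies at chr17:34421285-34421344 on the minus strand of mm9. In gWAT it stood at 2.84, 3.38, 2.52 and 2.78 in NZO and at 3.27, 3.23, 3.71 and 3.13 in B6. NZO array 012 overlapped with B6, and the difference of -0.45 did not pass (SE 0.21, adjusted p = 0.125 by limma). Without NZO array 012 it was -0.62 and passed (adjusted p = 0.0316 by limma).

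In BAT H2-Aa stood at 0.33, 0.19, 0.50 and 0.97 in NZO and at 1.55, 1.79, 1.69 and 1.54 in B6. Muscle gave -0.52, -0.38, 0.59 and 0.46 in NZO and at 2.02, 2.02 and 1.74 in B6. The strains did not overlap in either tissue, with differences of -1.14 in BAT (SE 0.17, adjusted p = 0.00278) and -1.89 in muscle (SE 0.30, adjusted p = 0.00895 by limma). B6 muscle 011 lay at 2.32, and with it the muscle call stood. NZO gWAT stood at 2.52 to 3.38, so this level on an array with fat markers does not tell the strain.

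H2-Eb1 encodes the beta chain of I-E, and its probe lies at chr17:34453075-34453134 on the plus strand of mm9. It stood at 6.84, 7.32, 6.44 and 6.70 in NZO gWAT and at 6.37, 6.34, 6.58 and 6.17 in B6 gWAT. Most NZO arrays lay above B6, with an overlap at NZO 003, and the difference was 0.46 (SE 0.19, adjusted p = 0.1 by limma). In BAT it stood at 4.34, 4.20, 4.36 and 4.94 in NZO and at 4.88, 5.12, 4.77 and 4.93 in B6. NZO array 007 lay within B6 and the others below, a difference of -0.46 (SE 0.17, adjusted p = 0.110 by limma). The muscle arrays stood at 3.55, 3.49, 4.43 and 4.17 in NZO and at 4.82, 4.62 and 4.53 in B6. The muscle groups did not overlap, yet the difference of -0.75 did not pass (SE 0.25, adjusted p = 0.111 by limma). B6 muscle 011 was above all others at 5.90.

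Calls on H2-Eb1 depended on single arrays and on the fit. Without NZO array 003 the gWAT difference was 0.59 (adjusted p = 0.0448 by limma), and without NZO array 007 the BAT difference was -0.62 (adjusted p = 0.0118 by limma). In muscle it passed when the fit took its spread from all 6 groups (-0.75, adjusted p = 0.0292 by limma).

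H2-Ea-ps is the I-E alpha chain locus under the array's pseudogene name. C57BL/6 mice are known for a deletion in the promoter region of this locus and make no I-E on their cells. Its probe lies at chr17:34481469-34481528 on the minus strand of mm9 and is shown whole, because it separated the strains most:
H2-Ea-ps probe: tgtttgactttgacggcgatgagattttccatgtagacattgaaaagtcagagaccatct

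H2-Ea-ps stood at 0.60, 0.86, 0.02 and 0.48 in NZO gWAT, all well above background, and at -7.02, -6.81, -7.14 and -7.11 in B6 gWAT, none above background. In BAT it stood at -2.35, -2.60, -2.38 and -1.48 in NZO and at -6.31, -6.46, -6.08 and -6.24 in B6, again with NZO above background and B6 not. The bounds of at least 46.7-fold and at least 4.33-fold set the NZO mean against the B6 mean of the lowest signal called well above background on each array, and the strain difference was called in both (adjusted p = 2.02e-07 in gWAT and 2.07e-05 in BAT by limma). The probe entered these tests through NZO alone, and the B6 spread is that of background. These p-values thus add little to its detection in NZO and not in B6. The bounds depend on the background correction, as the difference was called under every alternative but was as small as 2.97 in gWAT and 0.68 in BAT on the log2 scale with normexp, which adds an offset of 50 to each signal. In muscle it stood at -3.94, -2.78, -2.11 and -6.06 in NZO, the last not above background, and at -6.30, -6.03 and -6.38 in B6, so muscle was not tested. Within NZO it was lower in BAT than in gWAT by -2.69 (SE 0.52). It was also called lower in muscle than in gWAT, with 3 of 4 muscle arrays above background, so the size of that difference is not given.

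Cd74, the invariant chain, lies on chromosome 18, away from the H2 region on chromosome 17. It stood at 5.48, 6.16, 5.26 and 5.63 in NZO gWAT and at 5.32, 5.25, 5.43 and 5.18 in B6 gWAT. The groups overlapped, and the difference was 0.34 (SE 0.19, adjusted p = 0.202 by limma). In BAT it stood at 3.16, 3.21, 3.04 and 3.64 in NZO and at 3.66, 3.93, 3.71 and 3.73 in B6. The muscle values were 2.36, 2.59, 3.35 and 3.14 in NZO and at 3.93, 3.65 and 3.64 in B6. Every NZO array lay below every B6 array in BAT and in muscle, and both differences missed the threshold narrowly: -0.49 (SE 0.14, adjusted p = 0.0502 by limma) and -0.88 (SE 0.25, adjusted p = 0.0721 by limma). Cd74 in BAT passed without NZO array 007 (-0.62, adjusted p = 0.00856 by limma) and with another background correction (-0.44, adjusted p = 0.0423 by limma). In muscle it passed in 5 of 15 alternatives, within -1.15 to -0.71 over all of them.

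**Figure D2:**
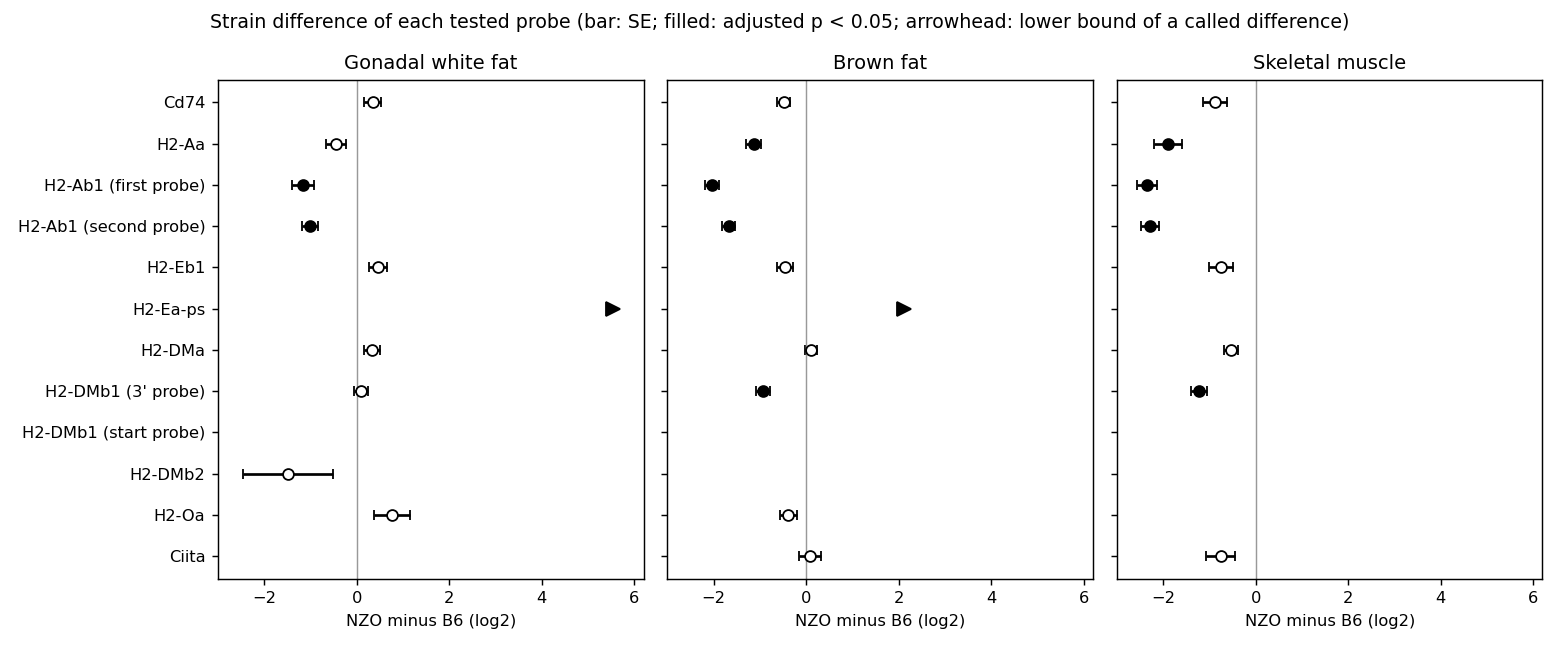
Strain difference (NZO minus B6, log2) of each tested probe in each of the 3 tissues; error bars are SE of the limma fit, filled symbols have an adjusted p under 0.05 and arrowheads are the lower bounds for H2-Ea-ps. Both H2-Ab1 probes are filled and below 0 in all 3 tissues, while H2-Eb1 and Cd74 are open, above 0 in white fat and below 0 in brown fat and muscle.

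Comparing probes on the same array takes out what shifts all class II genes of a sample together. H2-Aa minus H2-Eb1 was -4.00 to -3.92 in NZO gWAT and -3.11 to -2.87 in B6 gWAT. It was -4.01 to -3.86 and -3.38 to -3.08 in BAT, and -4.06 to -3.72 and -2.79 to -2.60 in muscle. The strains were apart in each tissue by -0.92, -0.68 and -1.14 (exact permutation test, two-sided p = 0.0286, adjusted 0.0477 for each), although the H2-Aa level alone overlapped in gWAT.

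H2-Ab1 (second probe) minus H2-Eb1 separated the strains more widely. It was -1.74 to -1.43 in NZO gWAT against -0.24 to 0.00 in B6 gWAT, -1.79 to -1.54 against -0.47 to -0.43 in BAT, and -1.74 to -1.39 against -0.04 to 0.16 in muscle. The strain differences of -1.47, -1.22 and -1.54 each had the smallest p the design allows (exact permutation test, p = 0.0286, adjusted 0.0477). The left-out B6 muscle 011 lay between the strains on both measures, at -3.59 for H2-Aa minus H2-Eb1 and -0.95 for H2-Ab1 minus H2-Eb1. With it among the B6 muscle arrays the exact p stayed at 0.0286.

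Cd74 minus H2-Eb1, by contrast, did not separate the strains. Its means were -1.19 ± 0.12 (SD, n = 4) in NZO and -1.07 ± 0.07 (n = 4) in B6 for gWAT, -1.20 ± 0.15 and -1.17 ± 0.08 for BAT, and -1.05 ± 0.12 and -0.91 ± 0.05 (n = 3) for muscle. The ranges overlapped in each tissue, and the exact permutation p was 0.114, 0.686 and 0.114 for differences of -0.12, -0.03 and -0.13.

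**Figure D3:**
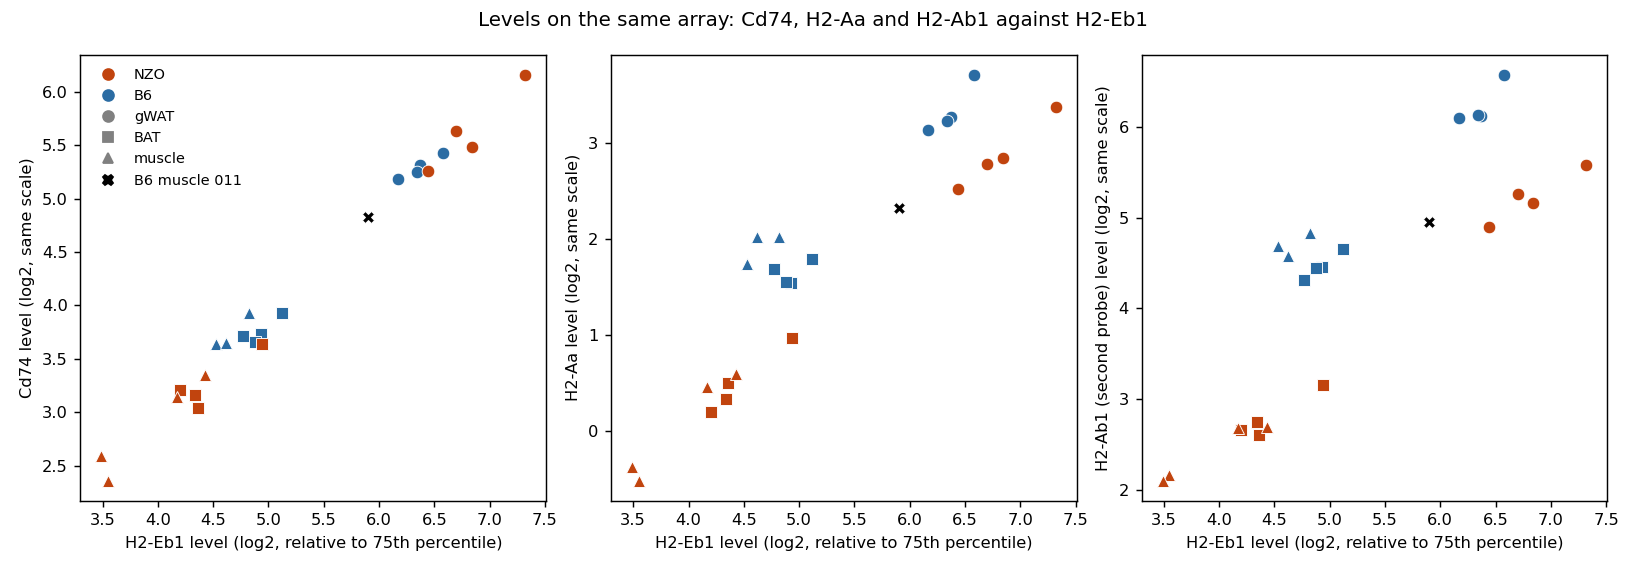
Levels of Cd74, H2-Aa and the second H2-Ab1 probe against H2-Eb1 on the same array, one symbol per array, coloured by strain and shaped by tissue, with B6 muscle 011 as a black cross. NZO and B6 arrays follow the same course for Cd74, while for H2-Aa and H2-Ab1 the NZO arrays run below the B6 arrays at the same H2-Eb1 level and the cross lies between them.

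H2-DMa and H2-DMb1 encode the chains of H2-DM, which exchanges peptides on class II molecules. The H2-DMa probe covers 60 bases within chr17:34274300-34274863 of mm9, a span of 564 positions. It stood at 1.18, 1.66, 1.16 and 1.18 in NZO gWAT and at 0.86, 0.92, 1.31 and 0.78 in B6 gWAT. It stood at -0.70, -0.78, -0.84 and -0.32 in NZO BAT and at -0.83, -0.58, -0.89 and -0.74 in B6 BAT. The strains overlapped in both fats, with differences of 0.33 (adjusted p = 0.162) and 0.10 (adjusted p = 0.681 by limma). In muscle it stood at -1.28, -1.23, -0.91 and -0.80 in NZO and at -0.51, -0.42 and -0.64 in B6, apart but not past the threshold (-0.53, SE 0.15, adjusted p = 0.0702 by limma).

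The H2-DMb1 probe at chr17:34297109-34297168 of mm9 gave 3.12, 3.39, 2.77 and 3.10 in NZO gWAT and 2.93, 2.94, 3.21 and 2.93 in B6 gWAT. In BAT it gave -0.25, -0.20, -0.15 and 0.32 in NZO and 0.91, 1.03, 0.64 and 0.90 in B6. In muscle it gave -0.33, -0.36, 0.05 and 0.14 in NZO and 1.29, 1.08 and 0.96 in B6. H2-DMb1 thus overlapped between the strains in gWAT (0.09, SE 0.15, adjusted p = 0.666 by limma) and was lower on every NZO array in BAT (-0.94, SE 0.15, adjusted p = 0.00415) and muscle (-1.23, SE 0.17, adjusted p = 0.00466 by limma). Between the strains on shared slides the difference was -0.32 in BAT and -0.82 in muscle, with 1 array of each strain. B6 muscle 011 stood at 2.17, above all other muscle arrays.

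The chains of H2-DM did not keep step between the strains. H2-DMb1 minus H2-DMa on the same array was 0.45 to 0.69 in NZO BAT and 1.53 to 1.74 in B6 BAT, and 0.87 to 0.96 in NZO muscle and 1.5 to 1.8 in B6 muscle. The differences of -1.04 in BAT and -0.70 in muscle each had an exact permutation p of 0.0286 (adjusted 0.0477). In gWAT it was 1.61 to 1.94 in NZO and 1.91 to 2.15 in B6, an overlap with p = 0.0857 in the exact permutation test.

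**Figure D4:**
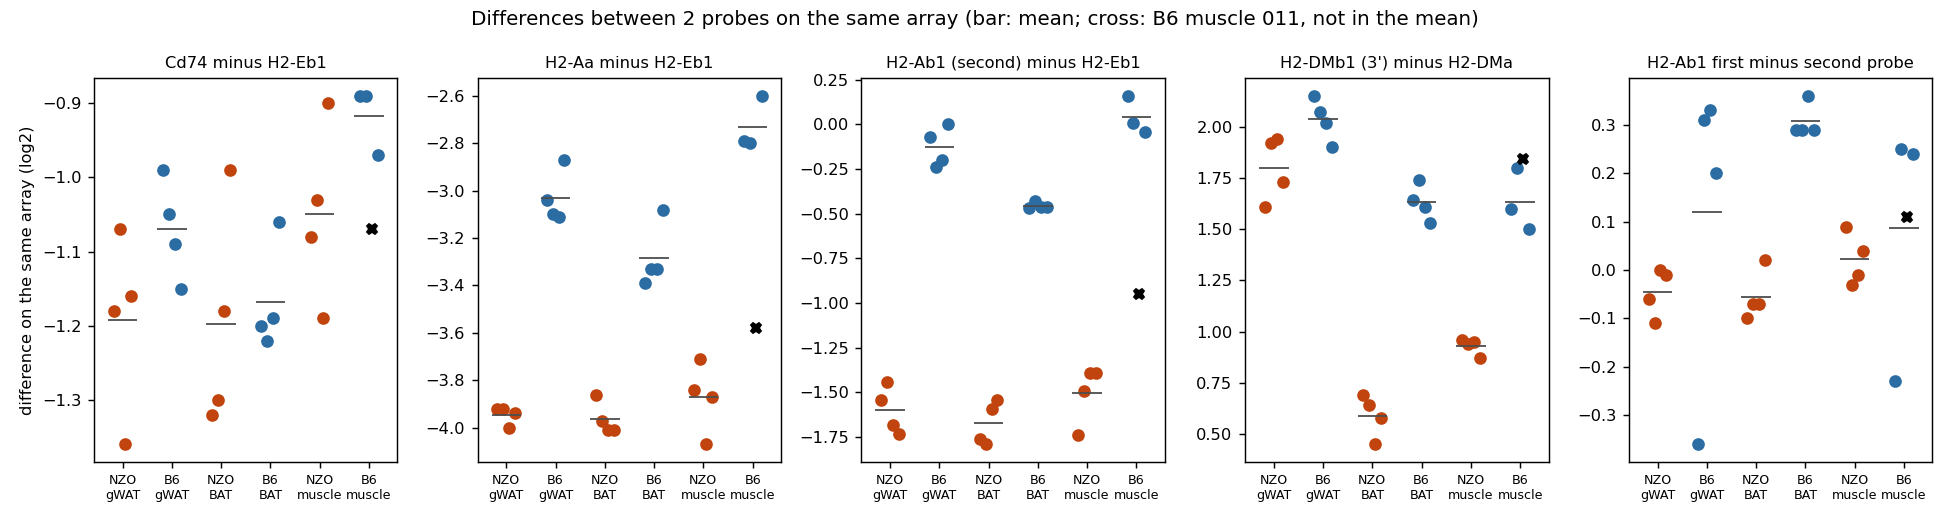
Difference in log2 level between probe pairs on the same array for Cd74 minus H2-Eb1, H2-Aa minus H2-Eb1, H2-Ab1 minus H2-Eb1, H2-DMb1 minus H2-DMa and the H2-Ab1 probe pair, by strain (NZO orange, B6 blue) and tissue; bars are means and the cross is B6 muscle 011. The H2-Aa and H2-Ab1 panels show the strains apart in every tissue (by -0.68 to -1.54), the H2-DM panel in BAT and muscle, and the Cd74 panel in none beyond the test.

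Another probe named H2-DMb1 (A_55_P1972989, transcript ENSMUST00000114232) was above background on none of the 24 arrays, at -7.39 to -6.24, and was never tested. It lies at chr17:34290109-34290168 of mm9, and its sequence matches the RefSeq window around the H2-DMb1 start (GRCm38.p6) from 27 bases before to 33 bases after it with 2 mismatches, A17G and A46T, counted from the 5′ end of the probe with the probe's base first. It differed from the same kind of window of H2-DMb2 at 19 of 60 bases. Part of the probe lies before the RefSeq start, so its lack of signal is no measure of H2-DMb1 RNA. The 30 bases that span the mismatches are shown, with the differing bases in capitals, because only the other H2-DMb1 probe gave a signal:
H2-DMb1 start probe: AggatttggttgagttactgggtacaagtA
H2-DMb1 RefSeq: GggatttggttgagttactgggtacaagtT

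H2-DMb2 encodes a second beta chain of H2-DM, and its probe lies at chr17:34284764-34284823 of mm9. All 4 B6 gWAT arrays had it well above background, at -4.54, -4.15, -3.29 and -4.05, and on 1 of 4 NZO gWAT arrays. NZO array 012 stood at -2.35, above every B6 array, while the other NZO arrays stood at -6.81, -7.26 and -5.53, below all of them. The difference of -1.48 did not pass (SE 0.97, adjusted p = 0.274 by limma), and it was called in 2 of 15 alternatives, without NZO array 012 (-2.52, adjusted p = 0.00693 by limma) and with slide in the model (-2.38, adjusted p = 0.00977 by limma). Over all 15 it ran from -2.52 to -0.08, and since 3 NZO arrays were not above background none of these values measures the size. On no BAT or muscle array was H2-DMb2 above background.

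H2-Oa encodes the alpha chain of H2-DO, a B-cell and dendritic-cell protein that restrains H2-DM; its probe lies at chr17:34232033-34232092 of mm9. It stood at -2.48, -0.96, -2.57 and -2.89 in NZO gWAT and at -3, -3.09, -2.66 and -3.21 in B6 gWAT. NZO array 012 stood apart above all others, the rest overlapped, and the difference was 0.76 (SE 0.39, adjusted p = 0.167 by limma). In BAT it stood at -3.99, -4.02, -3.64 and -3.60 in NZO and at -3.74, -3.09, -3.65 and -3.22 in B6 (difference -0.39, adjusted p = 0.205 by limma). In muscle it was above background on 0 of 4 NZO and 1 of 3 B6 arrays and was not tested.

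The high H2-DMb2 and H2-Oa signals of NZO gWAT 012 came with high B cell and lymph node markers on the same array. The summed B cell markers were 19.6 there, against 3.56 to 4.76 on the other NZO gWAT arrays and 1.35 to 1.79 in B6 gWAT, with 5 of 6 markers above background on each and Pax5 on none of them. The summed lymph node stroma markers (4 of 5 on the array) were 10.1 there, against 2.82 to 5.19 and 1.05 to 1.48. H2-Ob, the partner chain of H2-Oa, stood at -0.48 there and at -2.52 to -1.93 on the other NZO gWAT arrays. The part of these cells in the results on gWAT was not tested, and without this array the H2-Oa difference was 0.34, that of Cd74 0.16 and that of H2-Eb1 0.30, none of them called; H2-Aa and H2-DMb2 without it are given above.

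Ciita, the coactivator of the whole group, lay close to the detection limit. Its probe (chr16:10526568-10526627 of mm9) consists of A and C at 90% of its 60 bases. It was above background on 2 of 4 NZO and 3 of 4 B6 gWAT arrays and was not tested there. B6 array 011 stood at 0.25, with the other B6 arrays at -4.91 to -3.53 and NZO at -5.24 to -3.77. In BAT it stood at -3.62, -3.85, -3.24 and -4.16 in NZO and at -4.14, -4.09, -3.65 and -3.33 in B6, overlapping fully (0.08, SE 0.24, adjusted p = 0.866 by limma). In muscle it stood at -4.55, -4.05, -3.77 and -4.96 in NZO and at -3.46, -3.30 and -3.98 in B6, again with an overlap (-0.76, SE 0.31, adjusted p = 0.174 by limma).

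The RefSeq promoter table held a window for 6 of the 10 genes. Stretches from 150 bases before the start to the base before it are shown for 4 of them, because these members include the chains that differed between the strains and those that did not. Capitals mark the Y box (ATTGG or CCAAT) and, where found, the X1 box (by its consensus with at most 1 mismatch, 10 to 30 bases before an ATTGG). They lie on GRCm38.p6 at chr17:34287824-34287973 (minus strand, H2-Aa), chr17:34305717-34305866 (H2-Eb1), chr17:34153041-34153190 (H2-DMb1) and chr17:34145099-34145248 (H2-DMb2), the last 3 on the plus strand:
H2-Aa promoter: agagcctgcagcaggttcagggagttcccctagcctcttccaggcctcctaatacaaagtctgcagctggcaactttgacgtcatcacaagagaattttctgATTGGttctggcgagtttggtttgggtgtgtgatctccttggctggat
H2-Eb1 promoter: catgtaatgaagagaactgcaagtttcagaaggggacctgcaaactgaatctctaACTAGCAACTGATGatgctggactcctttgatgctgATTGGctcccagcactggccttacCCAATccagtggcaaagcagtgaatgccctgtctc
H2-DMb1 promoter: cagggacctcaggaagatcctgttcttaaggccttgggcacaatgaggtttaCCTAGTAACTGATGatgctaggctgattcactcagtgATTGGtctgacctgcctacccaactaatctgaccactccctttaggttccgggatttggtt
H2-DMb2 promoter: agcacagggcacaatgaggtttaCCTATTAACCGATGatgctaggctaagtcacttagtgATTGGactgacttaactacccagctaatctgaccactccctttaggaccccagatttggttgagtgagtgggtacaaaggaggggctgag

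H2-Eb1, H2-DMb1 and H2-DMb2 held the X1 box with 22 to 23 bases between it and the Y box, a pair found in 11 of the 32851 windows of 300 bases in the table (0.0335%). Among the 11 were also the class II genes H2-Eb2 and H2-Ob. The Y box alone, on either strand, was in 37.4% of them. These letters are those of the reference strain and say nothing of the NZO sequence. The H2-Aa and H2-Oa windows held a Y box without the X1 box under this search. H2-DMa has 2 start sites in the table, a window without a Y box and another with one at -198 from the start, neither with the X1 box, and a match or its absence is no measure of binding.

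In both strains gWAT was the tissue with the highest level of most members. From gWAT to BAT, 9 of 10 tested probes were lower in NZO, where 66.5% of all probes were called and 25.5% were called lower, and 7 of 9 in B6, where 57.6% were called and 23.8% lower. From gWAT to muscle, 9 of 9 were lower in NZO (69.8% of all called, 32.8% lower) and 9 of 10 in B6 (68.9% called, 34.1% lower). Among these, H2-Ea-ps and H2-Oa in NZO and H2-DMb2 and H2-Oa in B6 entered the test through gWAT alone. Their muscle arrays above background were 3 and 0 of 4 in NZO and 0 and 1 of 3 in B6. For them the filter itself favoured a lower value in muscle. The median difference over the tested class II probes was -2.38 and -1.58 for BAT and -2.84 and -1.55 for muscle, in NZO and B6, against 0.27 and 0.14 for BAT and 0.11 and 0.02 for muscle over all probes. Of all probes called, the share higher in the other tissue moved with the centre or background: from 61.7% to 33.4% under median centring for NZO BAT, from 52.9% to 32.4% for NZO muscle and from 58.8% to 42.2% for B6 BAT, and from 50.6% to 66.3% with normexp for B6 muscle. The class II counts in these 4 contrasts lay between 7 and 9 under both settings. Normexp background correction turned H2-DMb2 in B6 in both contrasts and H2-Oa in B6 muscle minus gWAT, signals near the detection limit. In NZO BAT minus gWAT, H2-Oa lost its call with normexp (-0.20, adjusted p = 0.273 by limma).

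Cd74 was lower in BAT than in gWAT by -2.37 in NZO (SE 0.20) and by -1.54 in B6 (SE 0.20), and lower in muscle by -2.77 and -1.56. H2-DMb1, whose probe was above background on every array used, was lower than in gWAT in BAT and in muscle, by -3.16 (SE 0.15) and -3.22 (SE 0.15) in NZO and -2.13 (SE 0.15) and -1.89 (SE 0.17) in B6. With the background correction used here, H2-Oa fell from gWAT to muscle at least 4.85-fold in NZO. Ciita passed in none of the tissue contrasts in which it was tested. Its SE there was 0.73 to 0.79, so changes of about that size could not be resolved.

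Fewer class II probes were called between BAT and muscle. In B6 none of 9 probes was called between them, at an adjusted or an unadjusted p under 0.05, where 62.6% of all probes were called; Cd74 differed by -0.01 (SE 0.22). With B6 muscle 011 kept, H2-DMa (0.45, adjusted p = 0.0421 by limma) and H2-DMb1 (0.51, adjusted p = 0.0412 by limma) were called higher in muscle. In NZO 4 of 10 were lower in muscle than in BAT (64.3% of all called, 37.4% lower): H2-Eb1 (-0.55), H2-Ea-ps (3 of 4 muscle arrays above background), H2-DMa (-0.40) and H2-Oa, at least 1.61-fold. H2-Ea-ps and H2-Oa entered this test through BAT alone, and the bound for H2-Oa depends on the background correction. With normexp, H2-Oa (-0.33, adjusted p = 0.0835 by limma) and H2-DMa (-0.25, adjusted p = 0.0742 by limma) lost the call. Without NZO muscle 007, the array not above background, H2-Ea-ps lost the call (-0.74, adjusted p = 0.0507 by limma), as it did without NZO BAT 007. The count of 4 was 2 without NZO muscle 009 or 011, 7 without NZO muscle 003 and 1 without NZO BAT 007.

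The strain difference itself changed between tissues, as tested by the interaction in a fit over all 6 groups. From gWAT to muscle, 9 of 11 tested probes had a lower strain difference in muscle, where 19.7% of all probes were called and 10.6% lower. They were H2-Aa (-1.43, SE 0.35, adjusted p = 0.00748 by limma), both probes of H2-Ab1 (-1.18 and -1.28), H2-Eb1 (-1.21, SE 0.31), H2-Ea-ps (-5.00), H2-DMa (-0.86, SE 0.22), H2-DMb1 (-1.32, SE 0.23), H2-Oa (-2.81) and Cd74 (-1.22, SE 0.29, adjusted p = 0.00784 by limma). For H2-Ea-ps and H2-Oa this rests on signals that were not above background in some groups, so the value does not measure size. Quantile normalization left 5 of these calls, with both H2-Ab1 probes, H2-Eb1 and Cd74 no longer passing. With slide in the model H2-Aa, the first H2-Ab1 probe, H2-Eb1 and H2-DMa did not pass.

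From gWAT to BAT, 4 of 11 probes had a lower strain difference in BAT (19% of all called, 9.23% lower). H2-DMb1 moved by -1.03 (SE 0.22, adjusted p = 0.00287 by limma) and H2-Ea-ps was also called, with no B6 array above background in either tissue, so its value of -3.44 does not measure size. H2-Eb1 (-0.92, adjusted p = 0.0362) and Cd74 (-0.83, adjusted p = 0.0463 by limma) also passed, but both lost the call in most fits that left out a single array, with quantile normalization, in the fit with slide and in the fit without the filter on dim probes. From BAT to muscle 0 of 10 probes passed limma (5.64% of all probes did), 4 of them with an unadjusted p under 0.05, and all 10 values were below 0.

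Macrophage and dendritic cell markers differed between the strains in gWAT in the direction opposite to H2-Ab1. The summed macrophage markers (6 of 7 on the array) were 162 to 191 in NZO gWAT and 68.6 to 83.4 in B6 gWAT, and the summed dendritic cell markers 8.48 to 9.16 and 2.11 to 2.89. In BAT the macrophage sums overlapped (25.3 to 30.5 and 23.7 to 30.2), and in muscle they were 46.2 to 61 in NZO and 39.8 to 42.8 in B6. Of the macrophage markers 5 rose and 1, Itgam, fell in NZO gWAT, with Trem2 up by 4.41 and Cd68 by 2.40, and of 6 dendritic cell markers tested 4 rose and 1 fell. The marker counts in this paragraph stand beside 32.4% of all probes called in gWAT (14.9% higher and 17.4% lower), 15.7% in BAT and 11% in muscle. The dendritic cell sums were 0.905 to 1.37 in NZO and 1.3 to 1.52 in B6 BAT, and 0.433 to 0.756 and 0.721 to 1.09 in muscle. There 1 of 4 dendritic markers was lower, Cd209a (-2.26), and in BAT 0 of 4 passed limma, with 1 at an unadjusted p under 0.05. Of the lymph node stroma markers only the chemokine gene Ccl19 passed, 1 of 4 in muscle (5.37) and 1 of 3 in BAT (5.48), with list medians of 1.19 and -0.19. Their sums were 12.7 to 17 in NZO muscle and 0.564 to 0.627 in B6 muscle, and 2.99 to 7.66 in NZO and 0.47 to 0.771 in B6 for BAT. B cell sums did not overlap between the strains in any tissue and lay higher in NZO, at 1.53 to 1.81 against 0.868 to 0.963 in muscle, where 1 of 4 markers was called higher and the list median was 0.19. In BAT these sums were 2.82 to 3.71 against 1.67 to 1.99, but 1 of 4 markers was called higher and the list median was -0.09. In gWAT 2 of 5 were called higher, with a list median of 1.9. Xcr1, a marker of a dendritic cell subset, was above background on no array used. The summed T cell markers overlapped between the strains in each tissue (3.09 to 5.85 and 3.03 to 4.60 in gWAT), while in BAT 1 of 4, Cd3d, was called lower in NZO (-1.25) and the list median was -0.37. The part of cell numbers in the class II results was not tested.

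Genes that act with class II molecules, taken from lists chosen for their roles, were tested in the same fits. All 7 endosomal processing genes were called higher in NZO gWAT, where 14.9% of all probes were called higher (the centre of the arrays moves that share, as given above). Among them were Ctss (2.26, SE 0.15), the protease that trims the invariant chain, and Lgmn (2, SE 0.12), an endosomal protease. In BAT Ctsb (-0.45) and Ctsd (-0.40) were lower and 5 did not pass, and in muscle only Ifi30 (0.93), a thiol reductase for antigens, passed. The median difference over the 7 genes was 1.64 in gWAT, 0.01 in BAT and -0.07 in muscle.

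Among the factors of the S, X and Y boxes, 1 of 7 was higher in gWAT, Nfya (0.58, SE 0.11), 0 of 6 passed in BAT and 1 of 6 was lower in muscle, Nfyb (-0.64, SE 0.13). In BAT 1 of the 6 had an unadjusted p under 0.05 in limma, Nfyb (-0.46, adjusted p = 0.0609). Rfx5, the subunit that touches DNA, was not tested in BAT and muscle and did not pass in gWAT (-0.43, adjusted p = 0.243 by limma). In interferon gamma signalling, the main inducer of Ciita, 3 of 9 were higher in gWAT: Irf8 (1.59, SE 0.16), Ifngr2 (1.05) and Jak1 (0.54). That share is close to the 32.4% of all probes called there. In BAT 0 of 8 passed limma, with 2 at an unadjusted p under 0.05, and in muscle 1 of 8 was lower, Jak2 (-0.68). Ifng itself differed by -0.16 in gWAT (adjusted p = 0.694 by limma). List medians lay between -0.07 and 0.06 in the fats for both lists, and at -0.32 for the box factors and -0.14 for the interferon genes in muscle.

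Of the surface and costimulation genes, March8, a ubiquitin ligase gene, was lower in NZO in all 3 tissues (-0.99, -1.03 and -1.24). March1, the ligase known to remove class II from the surface of dendritic and B cells, was lower in gWAT (-1.22, SE 0.31). Cd83 (1.24) and Cd86 (0.58), carried by activated antigen-presenting cells, were higher in gWAT, so that 2 of 9 rose and 2 fell there. In BAT 2 of 9 fell, with Lag3 (-0.87), a class II receptor of T cells, as the other, and in muscle 1 of 9 fell. The list medians were 0.31, -0.25 and 0.08, and over all probes 32.4%, 15.7% and 11% were called in gWAT, BAT and muscle.

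Of 7 neighbours of the class II genes in the H2 region, 1 to 3 were called per tissue. Btnl2, a butyrophilin-like gene, was higher in NZO in all 3 tissues (2.02, 0.84 and 1.33). H2-K1, a class I gene, was higher in gWAT (0.62), and Tap2 (0.62) and Brd2 (0.49) in BAT, so that 2, 3 and 1 of 7 neighbours rose and none fell at this threshold, with list medians of 0.22, 0.29 and 0.17. These counts stand beside 32.4%, 15.7% and 11% of all probes called in gWAT, BAT and muscle, and Btnl2 is part of each. The neighbours were not tested against the class II genes. No NZO genome was used here to check the probes, and the part of sequence differences under a probe in these values was not tested.

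**Figure D5:**
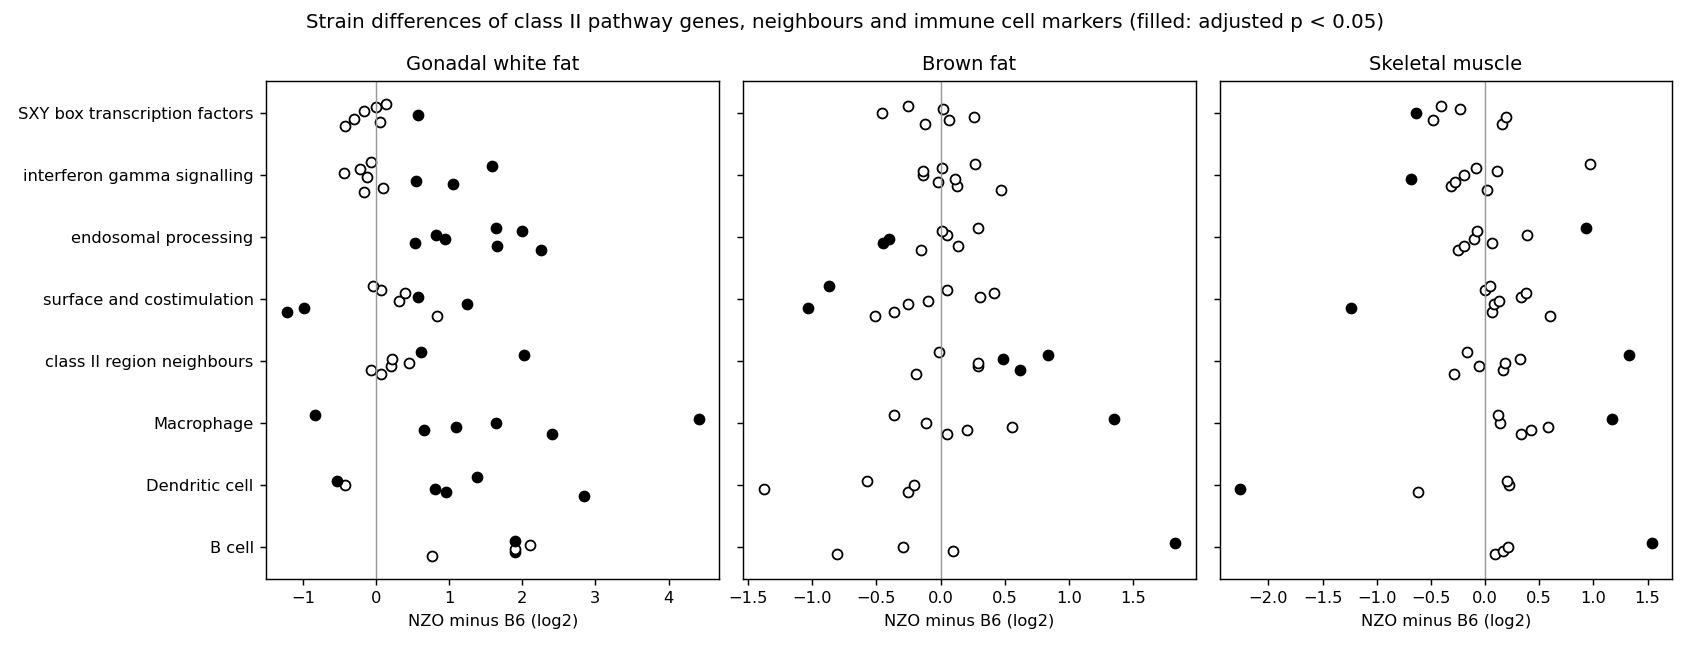
Strain difference (NZO minus B6, log2; the axis range differs between panels) of each tested gene of 5 class II pathway and neighbour lists and of 3 immune cell marker lists in the 3 tissues; filled circles have an adjusted p under 0.05. All 7 endosomal processing genes are filled and above 0 in gonadal white fat, where 5 of 6 macrophage markers also are. Over all probes 14.9% were called higher there.

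Across the 23 arrays the probes most like Cd74 were other class II probes. Over levels, Pearson's r was 0.993 for H2-Eb1, 0.980 for H2-DMb1 and 0.973 for H2-DMa among 22642 probes above background on all arrays used, followed by Itgb7 (0.972), an integrin of leukocytes, and Myo1f (0.968), a myosin of leukocytes. These values include the strain and tissue groups the arrays share. After subtraction of the group means, H2-Eb1 (0.937), H2-Aa (0.914) and the second probe of H2-Ab1 (0.910) again came first, then Rac2 (0.895) and Cd52 (0.889), genes of blood cells. They are given as a description, since the arrays share scaling and the genes were picked for their likeness.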

How the data were processed

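The authors' deposited scanner files hold spot intensities read with Agilent Feature Extraction 11.0.1.1 per the file headers, and the submitters' processing notes name version 9.1. The processed intensity was background-subtracted by that program per the file headers. Here spots with outlier flags were dropped, spots of a probe averaged, and log2 values taken relative to the 75th percentile of each array. Flags of background, saturation and outliers are other columns of the deposited files. A deposited value list for the whole series, also of intensities, served as an alternative.

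Strain differences were fitted per tissue, and tissue contrasts and interactions over all 6 groups, with limma 3.58.1 (lmFit, eBayes) in R 4.3.3 with the package data.table, version 1.17.8. Within-array differences were compared by exact permutation tests, 15 in all, which share arrays and probes. A bound ("at least") divides the bright group's mean by a floor for the dim group. That floor averages over its arrays the lowest signal flagged well above background, or the probe's signal if larger. Marker sums add linear signals relative to the 75th percentile. List genes use the probe with the highest mean, and those named are at most the 2 highest and 2 lowest of the called per list and tissue; Rfx5, Ifng, H2-Ob and Nfyb in BAT were named outside this rule, after their values were seen. Genes like Cd74 are named from the 8 with the highest r. The fits were tested on simulated data. Alternatives were another background correction (normexp, offset 50), quantile and median scaling, no filter, a strain fit over all groups, slide, replicate number (across strains in BAT chosen after seeing the data), each array left out, and B6 muscle 011 kept. Python 3.11.15 with pandas 2.3.3 read the sequences and matplotlib 3.10.9 drew the figures. Probe positions, on mm9, come from the deposited files, and their place in exons or untranslated regions was not determined; promoter sequences are from RefSeq, on GRCm38.p6. Members, lists and left-out array were chosen with earlier results of these data known. All 12 probes of the 10 genes are reported. The number of arrays limits the precision.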

Additional observations from a re-analysis of the deposited data

Results flagged for a closer look

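A single array lay far from the 3 others of its group for 3 of the 49 combinations of probe and group checked; chance alone flags about 1 in 20 groups. The second H2-Ab1 probe stood at 6.58 on B6 gWAT 015, against 6.10 to 6.14 on the others. H2-DMb1 stood at 3.21 on the same array, against 2.93 to 2.94. H2-DMa stood at 1.66 on NZO gWAT 012, against 1.16 to 1.18.

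The strain difference was itself different between gWAT and BAT, by the interaction term of limma, for H2-Eb1 (-0.92), H2-Ea-ps (-3.44), H2-DMb1 (-1.03) and Cd74 (-0.83). The calls of H2-Eb1 and Cd74 were lost in most fits that left out a single array, and the values of H2-Ea-ps, here and for muscle, do not measure size because no B6 array used was above background. Between gWAT and muscle it was different for H2-Aa (-1.43), both H2-Ab1 probes (-1.18 and -1.28), H2-Eb1 (-1.21), H2-Ea-ps (-5.00), H2-DMa (-0.86), H2-DMb1 (-1.32), H2-Oa (-2.81, with 0 of 4 NZO and 1 of 3 B6 muscle arrays above background) and Cd74 (-1.22).

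The array left out of the comparisons, B6 muscle 011, gave H2-Ea-ps at -1.06, well above background, while the other B6 arrays lay at -7.14 to -6.03. Its macrophage markers summed to 78.4, against 39.8 to 42.8 on the other B6 muscle arrays.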

How the results depend on the processing

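H2-Ab1 was called lower in NZO in each tissue on both probes under all alternatives tried, with differences of -1.49 to -0.72 in gWAT, -2.21 to -1.60 in BAT and -2.52 to -2.10 in muscle. H2-Aa and H2-DMb1 in BAT and muscle, and H2-Ea-ps in gWAT (2.97 to 7.79) and BAT (0.68 to 4.27), were also called, apart from H2-Aa and H2-DMb1 in BAT with the replicate block. Counts of called class II probes that moved were, under median centring, 7 in gWAT, 7 for the strain difference of BAT minus gWAT and 1 for that of muscle minus BAT. Under quantile normalization they were 5 for the strain difference of muscle minus gWAT and 1 for muscle minus BAT. For NZO muscle minus BAT the count was 2 with normexp, without the filter and with slide. For the strain difference of BAT minus gWAT it was 2 without the filter and with slide. The muscle strain fit over all 6 groups gave 7. With B6 muscle 011 kept, B6 muscle minus BAT gave 2 and the strain difference of muscle minus BAT 1. Leaving out each array in turn gave 3 to 5 in gWAT, 5 to 7 in BAT, 4 to 5 in muscle, 1 to 7 for NZO muscle minus BAT, 2 to 6 for the strain difference of BAT minus gWAT, 9 to 10 for muscle minus gWAT and 0 to 1 for muscle minus BAT. With normexp, H2-DMb2 turned to 0.43 in B6 BAT minus gWAT and to 0.34 in B6 muscle minus gWAT, and H2-Oa to 0.20 in the latter. In NZO, H2-Oa lost its call with normexp in BAT minus gWAT (-0.20) and in muscle minus BAT (-0.33). The causes were not tested. Of 1932 values of single probes under alternatives, 60 lost and 49 gained a call, 3 with a call turned sign and 37 without a call did.

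Centring on the median moved the median of all probes from 0.01 to -0.23 for the strain difference of BAT minus gWAT and from 0.01 to -0.30 for muscle minus gWAT. The split of all calls there moved from 3128 higher and 2954 lower to 1214 and 3158, and from 2960 and 3476 to 1102 and 4462.

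Arrays with the same number within a strain did not deviate together throughout (r over 0.1 in 5 of 10 pairs in NZO and 4 of 10 in B6, with medians of 0.11 and 0.09). Pairs with different numbers had r over 0.1 in 10 of 38 and 6 of 30, with medians of 0 and -0.05. Not every pair was over 0.1 and the labels do not say what a number marks, so the numbers were not taken to pair the arrays. With the replicate block, the strain difference of BAT minus gWAT had 2 calls and that of muscle minus BAT 1. In BAT the strains share the numbers 009 and 011. A replicate block over them, added after seeing the data and with 1 residual degree of freedom, gave 3 calls for the strain difference, H2-Ea-ps and both H2-Ab1 probes, and H2-Aa (-1.40) and H2-DMb1 (-1.19) no longer passed. No paired analysis was possible for the strain comparisons in gWAT and muscle because the strains share only the number 009 there.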
